A study of Drosophila melanogaster with 10 samples.

Results

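The contacts described here are those that cross the border between euchromatin and pericentromeric heterochromatin (PCH) on 3 chromosome arms of Drosophila S2 cells. A bin pair of 1 arm was taken when 1 bin lay wholly on the distal (euchromatic) side and the other wholly on the centromere side of the dm3 positions 22000975 on chr2L, 22955576 on chr3L or 378656 on chr3R. This gave 2294 crossing pairs of the 41399 same-arm pairs in the series, namely 837 on chr2L, 1272 on chr3L and 185 on chr3R. They join 22 distal bins, whose centres lie at most 89.9 kb outside the transition, to bins up to 1670 kb away.

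S2 is an established cell line of embryonic origin with haemocyte-like properties. Contacts were measured by chromosome conformation capture carbon copy (5C) in 3 untreated wild-type (WT) libraries and 6 libraries of RNAi-treated cells, with 2 for the mock, 2 for HP1a and 2 for Su(var)3-9. RNAi cells received 1 µg of double-stranded RNA, against GFP in the mock, and were collected 3 days later. The cells of every group were the same line, RNAi lowers a protein without removing the gene, and no protein or transcript level was analysed here. WT and mock RNAi together are called the 5 controls, and the other 4 the depleted libraries.

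HP1a is a chromodomain protein that binds histone H3 methylated at lysine 9 and is concentrated in PCH. Su(var)3-9 is a histone methyltransferase that places this mark and carries the name of the suppressors of position-effect variegation, in which a gene moved next to heterochromatin is silenced in some cells. The euchromatin-heterochromatin transition is the stretch of an arm where this mark begins, and a border that kept the compartments apart would lower the contacts across it relative to contacts of the same length inside PCH. This comparison is the one made below.

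Forward and reverse 5C primers anneal beside the EcoRI site of their fragments and are ligated to each other only where both fragments were joined. The fragments are joined by ligation after crosslinked chromatin is digested. The outermost distal primers of each design, by fragment number, are shown as examples of the sequences that define a euchromatic fragment. They were not placed on bins here, and the outermost bin of each arm had no score in any library. Each is the 30-base genomic part, without the universal tail, and the capitals mark the part of the EcoRI site at which forward and reverse primers meet.
chr2L forward: ttcaattactgcaaaatgtcctaaaatGAA
chr2L reverse: TTCaatacatgcaaaaaataagaaaaaact
chr3L forward: ttactattggttctaaagtctgtcataGAA
chr3L reverse: TTCtcccacgggtgcagatggaggcaggcg
chr3R forward: gtttatggccaaaaattcttgtcgaaaGAA
chr3R reverse: TTCacttttcagaaggacagagcatcctcg

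A value is a log2 score of observed over expected contacts, already corrected for distance by the authors, so that a negative score is a contact below expectation. Exact zeros were treated as missing scores. Of the crossing pairs, 1704 had a score in at least 1 library, 1395 (60.8%) had one in all 9, and 590 had none. Between 28.4% and 37.0% of them were missing per library. On chr3R the missing share was between 46.5% and 58.4%, the highest of the 3 arms in each library. There it was 46.5% to 47.6% in the controls and 49.7% to 58.4% in the HP1a and Su(var)3-9 RNAi libraries, without overlap. The scores were smoothed over neighbouring bins, and between 22.0% and 24.5% of scored pairs per library had exactly the score of the next centromere-side bin, so neighbouring pairs are not separate measurements.

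Some libraries stood apart. In Su(var)3-9 RNAi replicate 2, crossing pairs on chr2L averaged -2.38 against -0.80 to -0.12 in the controls, and the median of all its chr2L pairs was -2.46, so that the whole arm was shifted. The same library had chr3L scores only for pairs with a bin among the first 10 of the arm. It kept 850 crossing pairs, but only 311 of the 12720 centromere-side pairs, all from 2 bins next to the transition. Its chr3L contrast therefore rests on a reference unlike that of the other libraries. In Su(var)3-9 RNAi replicate 1 the median of all chr3L pairs was -1.22, against -0.81 to -0.46 in the controls. On chr3R the median was -1.48 in replicate 1 and -0.86 in replicate 2, against -0.64 to -0.40 in the controls. The deposited scores carry no depth. In the study's sequencing statistics every depleted library had fewer reads with an EcoRI site than every control, and depth therefore cannot be told apart from depletion.

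Crossing scores averaged below expectation in all 9 libraries, and so did centromere-side pairs of equal distance. In the controls the latter averaged -0.62, against -0.50 for the crossing pairs with such a partner. The mean crossing score over the 3 arms was -0.43, -0.26 and -0.50 for WT, -0.70 and -0.59 for mock, -0.43 and -0.19 for HP1a, and -0.83 and -1.18 for Su(var)3-9. Both Su(var)3-9 RNAi libraries were below all controls, HP1a RNAi replicate 1 was within their range and HP1a RNAi replicate 2 was above it. The 4 depleted libraries (-0.66 ± 0.44, SD, n = 4) and the 5 controls (-0.50 ± 0.17, SD, n = 5) overlapped (two-sided exact permutation test over libraries, p = 0.492, adjusted p = 0.574 over 7 tests). Without Su(var)3-9 RNAi replicate 2 the difference was 0.01 in place of -0.16, and with each arm of each library centred on its median it was 0.08 (exact permutation p = 0.0159). On chr3L of Su(var)3-9 RNAi replicate 2 this median came from 1338 scored pairs, of which 850 were crossing pairs, so centring there is unlike that of the other libraries.

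The share of scored crossing pairs above 0 was 5.63%, 19.6% and 7.76% for WT, 0.609% and 3.81% for mock, 9.68% and 29.2% for HP1a, and 9.71% and 4.94% for Su(var)3-9. All 4 depleted libraries were above both mock RNAi libraries, but they overlapped the 5 controls (difference 5.89 percentage points, exact permutation p = 0.365, adjusted p = 0.511), and centring each arm turned the difference to -5.26. Centromere-side pairs of equal distances gave 3.36%, 13.8%, 4.05%, 0.605%, 1.79%, 7.61%, 22.8%, 10.1% and 4.20% in the same order of libraries. The crossing pairs with such a partner gave 5.84%, 19.3%, 8.06%, 0.633%, 3.95%, 9.80%, 30.4%, 9.22% and 5.14%. The crossing share was the higher one in each library except Su(var)3-9 RNAi replicate 1.

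The comparison with PCH was made as a transition contrast, the mean score of crossing pairs minus that of centromere-side pairs at the same distance, averaged over the 3 arms. A contrast is a difference within 1 arm of 1 library, so a shift of the whole arm cancels in it. It was 0.08, 0.10 and 0.16 for WT, 0.12 and 0.15 for mock, 0.15 and 0.16 for HP1a, and 0.21 and 0.13 for Su(var)3-9. All 9 libraries were above 0, so crossing pairs scored slightly higher on average than centromere-side pairs of equal distance. In the controls the mean was 0.12 ± 0.03 (SD, n = 5) on the log2 scale (exact sign-flip permutation test, p = 0.0625, the smallest that 5 libraries allow). Only the PCH side is the reference in this contrast. The distal side holds 96 pairs in the 3 arms, few of them scored. Crossing minus distal-side scores at equal distance ran from -0.39 to 0.39 on chr2L and from -0.40 to 0.20 on chr3L. On chr3R they ran from -0.49 to -0.08 in the libraries with a value. Whether a border was present was not tested.

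The differences between groups in this average did not pass the test. The mock RNAi minus WT difference was 0.02 (exact permutation p = 0.600, where 2 against 3 libraries cannot go below 0.200). HP1a RNAi differed from the controls by 0.04 (exact permutation p = 0.190) and Su(var)3-9 RNAi by 0.05 (exact permutation p = 0.286), where 2 against 5 libraries cannot go below 0.0952. The 4 depleted libraries averaged 0.16 ± 0.03 (SD, n = 4), 0.04 above the controls, and the groups overlapped (exact permutation p = 0.0952, adjusted p = 0.333). Over pairs scored in all 9 libraries the sign turned, to -0.02 (exact permutation p = 0.349), a setting that leaves every library with only the 311 chr3L centromere-side pairs of 2 bins that Su(var)3-9 RNAi replicate 2 holds. With chr3L of Su(var)3-9 RNAi replicate 2 left out, a setting chosen after seeing the data, the difference was 0.05 and the exact permutation p was 0.0317.

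**Figure D1:**
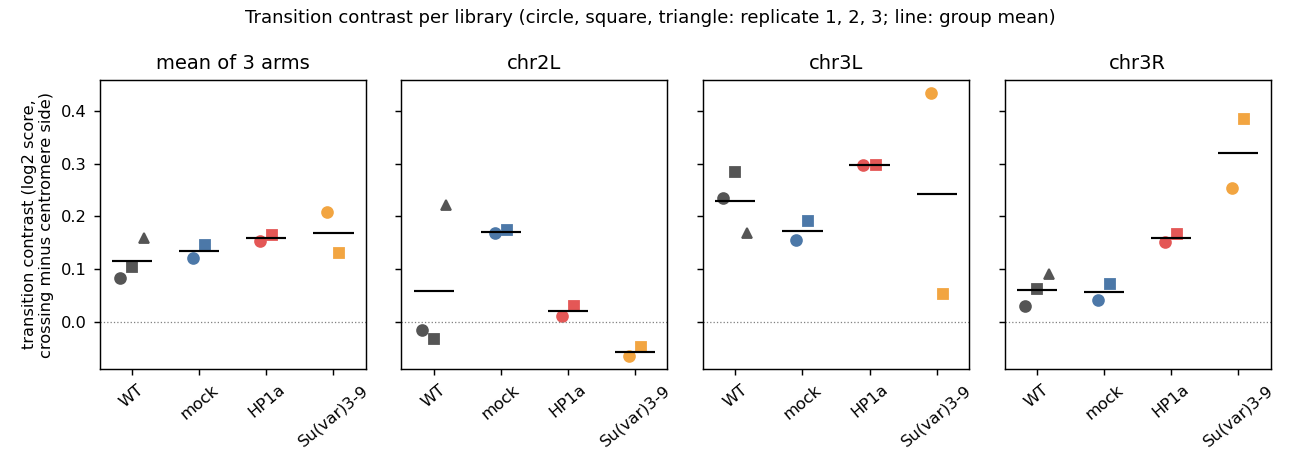
Transition contrast (log2 score of crossing minus equally distant centromere-side pairs, y axis) for each library, by group on the x axis, for the mean of 3 arms and for each arm. Points are libraries and black lines group means. All 9 points lie above 0 in the panel of the 3-arm mean, and on chr3R the 4 depleted libraries lie above the 5 controls.

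By arm, the values were spread more widely. On chr3L the contrast was 0.23, 0.28 and 0.17 for WT, 0.15 and 0.19 for mock, 0.30 and 0.30 for HP1a, and 0.43 and 0.05 for Su(var)3-9. All 9 were above 0, and both HP1a RNAi libraries were above the 5 controls (difference 0.09, exact permutation p = 0.0952, adjusted p = 0.171 over 9 tests). The value of 0.05 came from the library with the 2-bin reference. Over all 4 depleted libraries the difference was 0.06 (exact permutation p = 0.413), and it turned to -0.10 over pairs scored in all 9 libraries (exact permutation p = 0.0476) and to -0.07 with missing scores kept as 0.

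On chr2L it was -0.02, -0.03 and 0.22 for WT, 0.17 and 0.17 for mock, 0.01 and 0.03 for HP1a, and -0.06 and -0.05 for Su(var)3-9. WT replicates 1 and 2 lay with the depleted libraries and WT replicate 3 with mock RNAi, so the controls themselves ran from -0.03 to 0.22. Both Su(var)3-9 RNAi libraries were below all controls (difference -0.16, exact permutation p = 0.0952, adjusted p = 0.171). The 4 depleted libraries together overlapped the controls (difference -0.12, exact permutation p = 0.143, adjusted p = 0.214).

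On chr3R it was 0.03, 0.06 and 0.09 for WT, 0.04 and 0.07 for mock, 0.15 and 0.17 for HP1a, and 0.25 and 0.38 for Su(var)3-9. The groups did not overlap. The controls averaged 0.06 ± 0.02 (SD, n = 5) and the depleted libraries 0.24 ± 0.11 (SD, n = 4), a difference of 0.18 (exact permutation p = 0.0159, the smallest that 4 against 5 allow, adjusted p = 0.143 over 9 tests). On this arm between 97 and 99 crossing pairs were scored per control and between 77 and 93 per depleted library. Over pairs scored in all 9 libraries the groups did not overlap (difference 0.18, exact permutation p = 0.0159). With missing scores kept as 0 the groups overlapped (difference 0.13, exact permutation p = 0.222).

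The contrast was also taken by distance. In pairs under 100 kb apart, which straddle the transition itself, the mean of the 3 arms was 0.21 ± 0.04 (SD, n = 5) in the controls and 0.36 ± 0.09 (SD, n = 4) in the depleted libraries, with overlap (exact permutation p = 0.0317, adjusted p = 0.127 over 12 tests). The groups did not overlap (exact permutation p = 0.0159) over pairs scored in all 9 libraries, with centromere-side pairs within 500 kb of the transition, or with medians. They overlapped with missing scores kept as 0 (difference 0.08, exact permutation p = 0.397). They also overlapped with the bin on either side of the transition bin left out (difference 0.14, exact permutation p = 0.111). The chr2L contrast was 0.42 ± 0.16 (SD, n = 5) in the controls and 0.34 ± 0.18 (SD, n = 4) in the depleted libraries, and it was above 0 in all 9 libraries, from 0.09 to 0.69. On chr3L it was 0.20 ± 0.10 (SD, n = 5) and 0.26 ± 0.06 (SD, n = 4), again above 0 in all 9, from 0.08 to 0.35. On chr3R the controls averaged -0.00 ± 0.12 (SD, n = 5) with 4 of 5 above 0, while HP1a RNAi gave 0.64 and 0.03 and Su(var)3-9 RNAi 0.58 and 0.65 (exact permutation p = 0.0476, adjusted p = 0.143 over 12 tests). Only 15 to 21 chr3R crossing pairs per library entered this class. The mean of the 3 arms weights each arm equally, so its difference came mostly from chr3R, while chr2L went the other way. With centromere-side pairs limited to those within 500 kb of the transition, 3 of 5 chr3L controls were above 0 (mean 0.05), and the depleted libraries (mean 0.22) lay above all of them (exact permutation p = 0.0159).

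At 100 to 300 kb the chr2L contrast separated depleted from control libraries. It was 0.15, 0.14 and 0.34 for WT, 0.28 and 0.34 for mock, -0.12 and -0.01 for HP1a, and -0.07 and -0.18 for Su(var)3-9. All 5 controls were above 0 and all 4 depleted libraries below it, a difference of -0.35 (exact permutation p = 0.0159, adjusted p = 0.0952 over 12 tests). Over the 3 arms the same class gave 0.14 ± 0.03 (SD, n = 5) in the controls and 0.02 ± 0.04 (SD, n = 4) in the depleted libraries, also without overlap (exact permutation p = 0.0159, adjusted p = 0.0952). Both had the smallest p that 4 against 5 allow, and neither passed the correction. The absolute difference as the statistic, an alternative chosen after seeing the data, gave an adjusted p of 0.0476 for each.

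No library decided the 100 to 300 kb result on chr2L. Leaving out each in turn left differences between -0.32 and -0.38 without overlap, and -0.32 without Su(var)3-9 RNAi replicate 2. With missing scores kept as 0 the groups overlapped (difference -0.19, exact permutation p = 0.0317). The chr3L and chr3R contrasts of this class overlapped between the groups, with differences of -0.06 (exact permutation p = 0.397) and 0.06 (exact permutation p = 0.540).

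At 300 kb and over the chr3L contrast was above 0 in all 9 libraries, with 0.23 ± 0.05 (SD, n = 5) in the controls and 0.32 ± 0.17 (SD, n = 4) in the depleted libraries. On chr2L it was 0.03 ± 0.13 (SD, n = 5) and -0.02 ± 0.06 (SD, n = 4), and no arm of this class separated the groups.

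**Figure D2:**
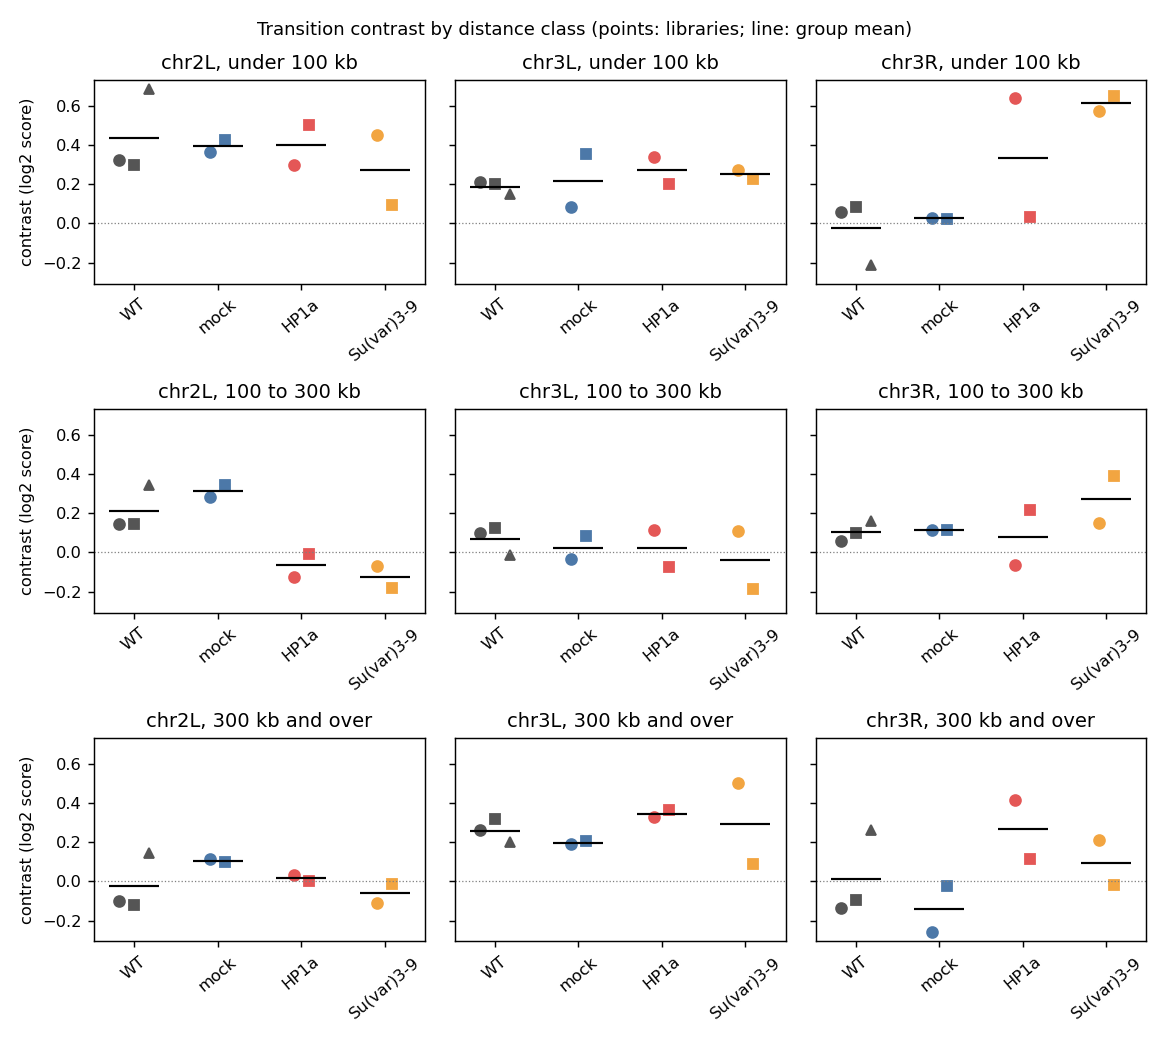
Transition contrast (log2 score, y axis) by distance class (rows) and arm (columns), with libraries as points in their groups on the x axis and group means as lines. In the chr2L panel of 100 to 300 kb the WT and mock RNAi points lie between 0.14 and 0.34 and the depleted ones between -0.18 and -0.01.

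**Figure D3:**
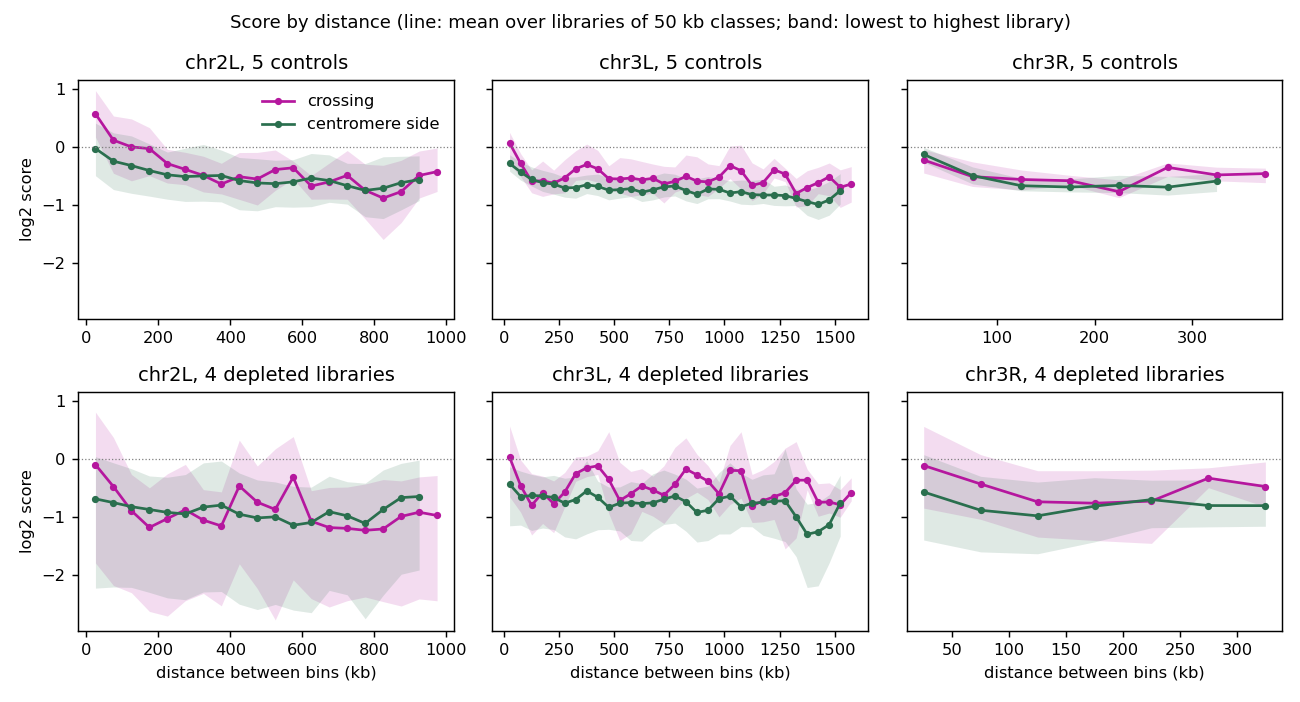
Mean log2 score (y axis) against the distance between bins (x axis, kb) for crossing and centromere-side pairs in the 5 controls (upper row) and the 4 depleted libraries (lower row), as means over libraries of 50 kb classes with bands from the lowest to the highest library. Crossing pairs of chr2L and chr3L start above the centromere-side pairs, and the wide chr2L band of the depleted libraries reaches down to Su(var)3-9 RNAi replicate 2, whose arm median was -2.46.

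The distal bins were not alike. Of the 22, 3 had no score in any library and 3 more lacked one in some, each of them at the outer end of its arm, which left 16 with a contrast in all 9 libraries. The means over the controls ran from -0.05 to 0.53. The lowest was the chr3R bin chr3R:396153-406153, centred 22.5 kb outside the transition, and the highest the chr3L bin chr3L:22886370-22896370, centred 64.2 kb outside. On each arm the outermost bin scored in all 9 had the highest control mean, 0.26 on chr2L and 0.31 on chr3R, and these 3 bins had few scored pairs in some libraries, from 11 to 72 on chr2L, from 16 to 107 on chr3L and from 8 to 26 on chr3R. Whether the missing scores raised these means was not tested.

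Bins in the middle of the chr2L distal side carried the largest differences. For the bin chr2L:21956057-21966057, about 40 kb out, the contrast was -0.21, -0.14 and 0.29 for WT, 0.14 and 0.25 for mock, -0.26 and -0.16 for HP1a, and -0.75 and -0.81 for Su(var)3-9. Both Su(var)3-9 RNAi libraries were the lowest, while HP1a RNAi overlapped WT. For its outer neighbour chr2L:21946057-21956057 it was 0.03, 0.07 and 0.17 for WT, 0.05 and 0.18 for mock, -0.04 and -0.06 for HP1a, and -0.27 and -0.59 for Su(var)3-9. Here the groups did not overlap (difference -0.34, exact permutation p = 0.0159, adjusted p = 0.127 over 16 tests).

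The opposite was seen on chr3R for the bin chr3R:396153-406153. Its contrast was -0.06, -0.03 and -0.02 for WT, -0.10 and -0.04 for mock, 0.14 and 0.18 for HP1a, and 0.17 and 0.34 for Su(var)3-9. All controls were below 0 and all depleted libraries above it (difference 0.26, exact permutation p = 0.0159, adjusted p = 0.127). These 2 of the 16 bins were the ones without overlap, and none passed the correction.

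On the centromere side, crossing pairs were grouped by 100 kb segments of their inner bin, and 29 of 30 segments could be compared. On chr3L the 5 controls were all above 0 in 13 of 16 segments and all below it in 1, the last, 1500 to 1600 kb inside. On chr2L they were all above 0 in 3 of 10, led by 0.35 in the first 100 kb and 0.34 in the next. Depleted and control libraries did not overlap in 5 segments, 3 higher and 2 lower in the depleted libraries (each exact permutation p = 0.0159, adjusted p = 0.0921 over 29 tests).

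The largest decrease was in the chr2L segment 100 to 200 kb inside the transition. Its contrast was 0.21, 0.25 and 0.41 for WT, 0.34 and 0.47 for mock, -0.22 and -0.09 for HP1a, and -0.21 and -0.40 for Su(var)3-9. At 500 to 600 kb inside the same arm the order was turned, with -0.01, -0.16 and 0.18 for WT, 0.42 and 0.14 for mock, 0.59 and 0.64 for HP1a, and 0.52 and 0.45 for Su(var)3-9. Relative to the controls, the contrast of the distal chr2L bins was lower with the former segment and higher with the latter in all 4 depleted libraries. This holds for the contrast and not for the raw scores, since the whole arm was shifted in Su(var)3-9 RNAi replicate 2. The segment 600 to 700 kb inside was the other decrease, with a mean of 0.03 in the controls and -0.26 in the depleted libraries.

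On chr3L the higher segments were 800 to 900 kb inside, with 0.24, 0.33 and 0.07 for WT, 0.17 and 0.10 for mock, 0.69 and 0.45 for HP1a, and 0.83 and 0.40 for Su(var)3-9, and 1300 to 1400 kb inside, with means of 0.30 in the controls and 0.76 in the depleted libraries. The latter mean was carried in part by Su(var)3-9 RNAi replicate 1 at 1.54, since the other 3 depleted libraries were between 0.50 and 0.51.

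**Figure D4:**
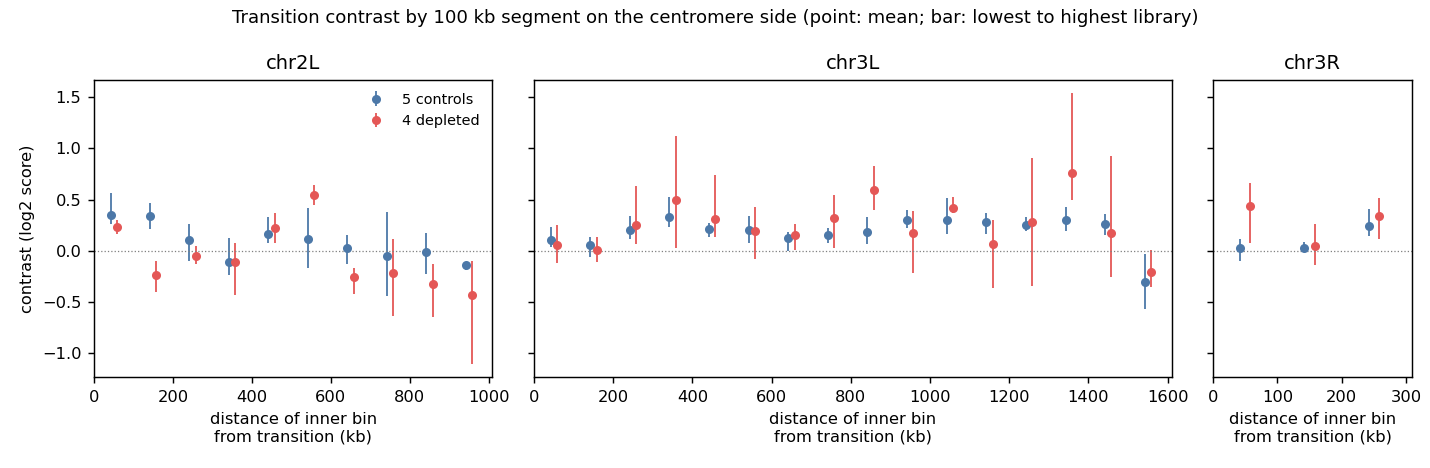
Transition contrast (log2 score, y axis) by 100 kb segment of the centromere-side bin (x axis, distance from the transition in kb) for each arm, with means of the 5 controls and the 4 depleted libraries as points and bars from the lowest to the highest library. On chr2L the depleted libraries lie below the controls at 100 to 200 kb (-0.23 against 0.34) and above them at 500 to 600 kb (0.55 against 0.11).

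Single pairs were compared in the same way. Of the 1395 crossing pairs scored in all 9 libraries, 32 (2.29%) had all 4 depleted libraries below all 5 controls, against 4.44% of all same-arm pairs, and 14 (1%) had all 4 above, against 1.85%. These shares were below those of the series as a whole, which includes other arms. Centromere-side pairs of the 3 arms gave 2.06% below and 0.0595% above, so against them the crossing shares were not lower. The crossing shares were uneven by arm, with 30 of 540 pairs (5.56%) below on chr2L and 2 of 784 on chr3L. Centromere-side pairs gave 2.26% below on chr2L and 0 of 311 on chr3L. Of the 30, 21 had their inner bin 100 to 200 kb inside the transition. Of the 14 above, 13 were on chr3L (1.66%, against 0.965% of the 311 centromere-side pairs of that arm).

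Among pairs scored in all 9 libraries, the strongest crossing contacts of the controls sat at the transition on chr2L and chr3L. On chr2L the highest joined chr2L:21966057-21976057 to the first whole PCH bin, chr2L:22006057-22016057, with 0.49, 0.71 and 1.24 for WT, 0.46 and 0.98 for mock, 0.17 and 0.67 for HP1a, and 0.21 and -2.07 for Su(var)3-9. All but Su(var)3-9 RNAi replicate 2, in which the whole arm was shifted, were above expectation. The other two of the 3 highest pairs shared this PCH bin, with control means of 0.70 and 0.68.

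On chr3L the highest joined chr3L:22936370-22946370 to the first PCH bin chr3L:22956370-22966370, with 0.31, 0.30 and 0.15 for WT, -0.18 and 0.17 for mock, 0.49 and 0.86 for HP1a, and -0.91 and -0.05 for Su(var)3-9. The other two again shared the PCH bin, with control means of 0.12 and 0.10. In the highest pair both HP1a RNAi libraries were above all controls, and Su(var)3-9 RNAi replicate 1 was below them. On chr3R none of the 71 such pairs had a control mean above 0, the highest being -0.15 for chr3R:386153-396153 with chr3R:356153-366153.

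Pair by pair, HP1a RNAi was compared with mock RNAi by limma over all 35746 pairs scored in WT, mock and HP1a RNAi, with Benjamini-Hochberg adjusted p under 0.05 as a call. Of 1395 crossing pairs, 28 (2.01%) were higher, against 3.94% of all pairs, and 1 (0.0717%) was lower, against 0.344%. Both shares were under the background. The median change of the crossing pairs was 0.40 and that of all pairs 0.34, so the crossing pairs shifted with the map as a whole. With each arm of each library centred on its median, 15 crossing pairs were higher (1.08%, against 1.4% of all pairs) and 14 lower (1%, against 1.88%). All 15 were among the 28, and 96.6% of calls were higher before centring against 51.7% after it.

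The called pairs fell in a few patches. On chr2L, the 3 distal bins of chr2L:21966057-21996057 were higher with chr2L:22526057-22546057, about 530 to 540 kb inside, in 6 pairs, of which 5 held after centring. The pair of chr2L:21966057-21976057 with chr2L:22526057-22536057 had the smallest p. Its scores were -0.32, -0.41 and 0.36 for WT, -0.36 and -0.42 for mock, 1.62 and 1.72 for HP1a, and 2.03 and 0.32 for Su(var)3-9. It rose by 2.06 ± 0.29 (SE) on the log2 scale (limma adjusted p = 0.0106). Scores were often shared within the patch through smoothing, as with the 1.72 of HP1a RNAi replicate 2, which the 3 pairs of smallest p all had. A second patch of 5 pairs, with PCH bins 390 to 430 kb inside, held in 0 after centring.

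On chr3L, 7 pairs joined chr3L:22906370-22926370 to chr3L:23956370-23996370, centred 1006 to 1036 kb inside, with increases of 1.19 to 1.46, and 8 pairs joined chr3L:22896370-22946370 to chr3L:24236370-24286370, centred 1286 to 1326 kb inside, with increases of 1.07 to 1.80. After centring, 5 of each held. The remaining 2 higher pairs of chr3L lay alone and did not hold. No chr3R pair was called among 71.

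The 1 lower pair joined chr2L:21976057-21986057 to chr2L:22136057-22146057, about 140 kb inside. Its scores were 0.09, 0.57 and 0.57 for WT, -0.12 and 0.55 for mock, -1.11 and -0.83 for HP1a, and -0.50 and -2.66 for Su(var)3-9. All depleted libraries were below all controls, and limma gave a change of -1.19 ± 0.30 (SE, adjusted p = 0.0479). The calls depended on both mock RNAi libraries and did not hold without either of them. Without WT replicate 1, 23 of 1397 crossing pairs were called, against 1117 of all 35752 pairs. Without WT replicate 2 they were 17 of 1412, against 1182 of 35805, and without WT replicate 3, 71 of 1396, against 2707 of 35748. Fewer were called without HP1a RNAi replicate 2 and more without replicate 1. Without replicate 1 the called share of crossing pairs was above that of all pairs.

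**Figure D5:**
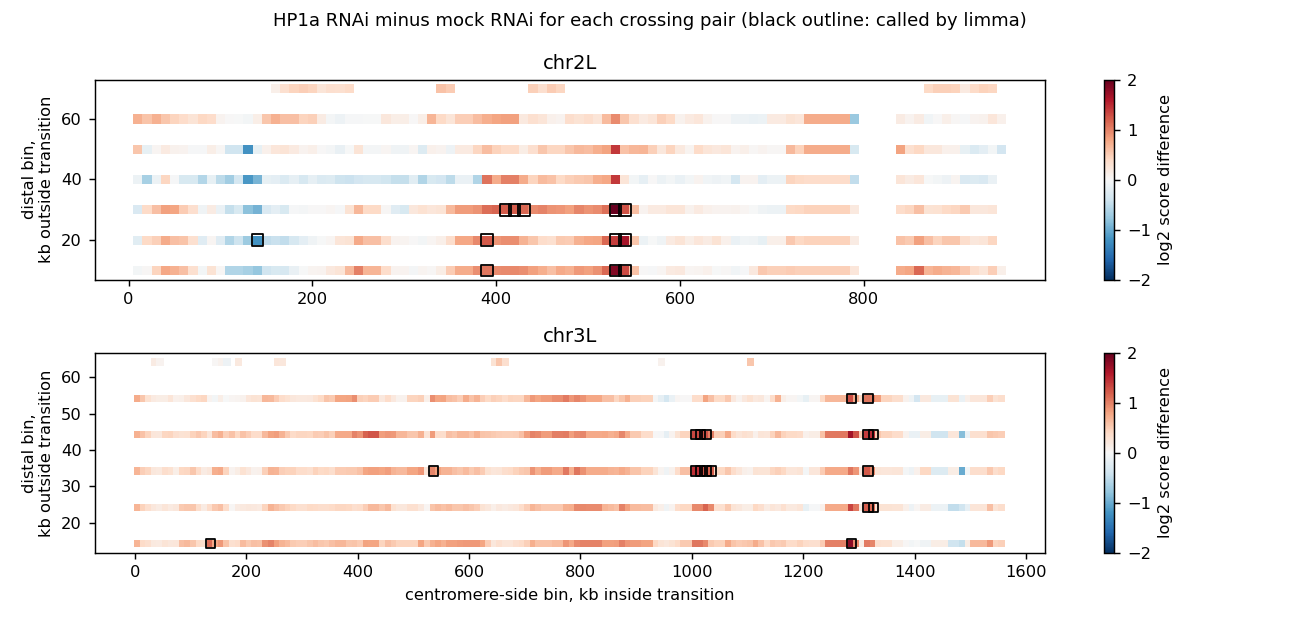
Difference in log2 score between HP1a RNAi and mock RNAi (colour) for each scored crossing pair, by the distance of its distal bin outside the transition (y axis, kb) and of its centromere-side bin inside it (x axis, kb), on chr2L and chr3L. Black outlines mark the 29 called pairs, 28 of them higher, of which 11 lie 390 to 540 kb inside on chr2L and 15 in the 2 patches farthest inside on chr3L.

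For Su(var)3-9 RNAi against mock RNAi, limma called 0 of 1429 crossing pairs higher or lower, against 0% and 0.0377% of all pairs, and 157 (11%) had an unadjusted p under 0.05, against 21% of all. The replicates differed by shifts of whole arms. The arm medians of replicates 1 and 2 were -0.49 and -2.46 on chr2L, -1.22 and -0.59 on chr3L, and -1.48 and -0.86 on chr3R. After centring each arm, 89 were higher (6.23%, against 8.86% of all pairs) and 109 lower (7.63%, against 10.6%). The chr3L median used for replicate 2 came mostly from the crossing pairs themselves. The smallest p was found for chr3L:22896370-22906370 with chr3L:24156370-24166370, at -0.06, -0.15 and -0.40 for WT, -0.25 and -0.43 for mock, -0.14 and -0.86 for HP1a, and -2.50 and -2.11 for Su(var)3-9. Both Su(var)3-9 RNAi libraries were below all others, by -1.97 ± 0.32 (SE) against mock RNAi (limma adjusted p = 0.0658).

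For both depletions against the controls, 0 crossing pairs were higher, against 0.202% of all pairs, and 1 of 1395 was lower, against 0.752%. It joined chr2L:21956057-21966057 to chr2L:22136057-22146057, with -0.01, 0.52 and 0.57 for WT, -0.16 and 0.42 for mock, -0.999 and -0.600 for HP1a, and -1.84 and -3.88 for Su(var)3-9, a change of -2.07 ± 0.40 (SE, limma adjusted p = 0.0480). Leaving out any single control or HP1a RNAi library ended this call. After centring, 91 crossing pairs were higher (6.52%, against 9.15% of all pairs) and 109 lower (7.81%, against 11.3%), again under the background in both directions. The limit of the chr3L median of Su(var)3-9 RNAi replicate 2 applies here too. The pair with the smallest p among the higher ones was the chr2L pair with the bin 530 kb inside named above (1.68 ± 0.35, SE, limma adjusted p = 0.0561).

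On chr2L and chr3L the pattern over crossing pairs was more alike among controls than between controls and depleted libraries. Across crossing pairs of chr2L, Pearson's r was 0.53 to 0.78 among the 10 pairs of controls, 0.53 to 0.71 among the 6 pairs of depleted libraries and 0.02 to 0.46 between a control and a depleted library. On chr3L the ranges were 0.51 to 0.77, 0.23 to 0.58 and 0.14 to 0.42. On chr3R they were 0.63 to 0.85, 0.02 to 0.60 and 0.19 to 0.76, and over the 3 arms together 0.27 to 0.72, -0.06 to 0.57 and -0.42 to 0.44, so that the first and last ranges overlapped in both. Neighbouring pairs share fragments and smoothing, so these values describe the maps and have no p.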

How the data were processed

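The authors deposited log2 scores of observed over expected contacts, 1 file per library, for same-arm pairs of 10 kb bins (5 kb on chrX) in dm3. According to the methods, paired reads with the EcoRI site were mapped to the primer combinations with Bowtie2. Frequencies were normalized to mapped reads and then, with HiTC, to the expected frequency. In my5C they were set beside the non-crosslinked control library, scored as observed over expected, and binned and smoothed by medians. Versions were not given in the sources used here. Read depth is not carried by the scores, so no counting interval was given. The control library was not analysed here.

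Exactly 0 was taken as missing and the 2 sides of the diagonal were averaged. The 4 chr2L bins starting from 22796057 to 22826057 are not reported here. The members and lists were chosen with earlier results of these data known. Contrasts were compared between groups with exact permutation tests over libraries, two-sided by doubling the smaller one-sided share, adjusted by Benjamini-Hochberg within each family of tests. A distal bin or segment was tested when each library had at least 5 scored crossing pairs. limma 3.58.1 (R 4.3.3, lmFit and eBayes) was fitted to all same-arm pairs scored in all libraries of a fit, with WT in every fit. Named were the 3 highest control pairs per arm and the 3 pairs of smallest p per comparison and direction, of which the text prints the leading ones. Patches of called pairs, bins and segments were described after their values were seen.

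In data simulated with 200 changed pairs among 35746, limma found 67% of changes of size 2 (log2) for HP1a RNAi, and 98.5% of changes of size 4. For Su(var)3-9 RNAi, with 23900 pairs, it found 0% and 85%. For both depletions, with 23808 pairs, it found 63% and 99.5%. It made 0 calls without changes. With changes of size 2 and 4 it made 7 and 7 false calls for HP1a RNAi, 0 and 6 for Su(var)3-9 RNAi, and 11 and 11 for both depletions. The simulated pairs were independent, unlike the smoothed scores, so these rates need not hold for the data. The p-values measure the spread between libraries, and the labels do not say whether RNAi replicates were separate cultures. Alternatives covered missing scores, close pairs, the bins beside the transition, the reference pairs, medians, arm weights, centring, the samples in the fit, pairing by replicate number, and each library left out in turn.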

Additional observations from a re-analysis of the deposited data

Results flagged for a closer look

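The mean crossing score over the 3 arms moved in opposite directions from mock RNAi (-0.65) in the 2 depletions. Both HP1a RNAi libraries were above both mock RNAi libraries (by 0.33 on average) and both Su(var)3-9 RNAi libraries below them (by -0.36), a difference of 0.69 between the depletions. Centromere-side pairs of equal distances moved the same ways, with means of -0.78 in mock RNAi, -0.47 in HP1a RNAi and -1.18 in Su(var)3-9 RNAi, so the pattern was not particular to crossing pairs. By arm it did not hold throughout, since Su(var)3-9 RNAi replicate 1 on chr2L (-0.47) and replicate 2 on chr3L (-0.57) were above the mock RNAi means of -0.65 and -0.69, and replicate 2 on chr3R (-0.60) was level with that of -0.60. The difference was not tested, since 2 against 2 libraries cannot go below an exact permutation p of 0.333, and it was 1 of 12 measures looked at in this way.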

How the results depend on the processing

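The contrast of the controls stayed above 0 under all 13 alternatives (0.08 to 0.24). The differences in contrast were small and turned sign under some settings. Mock RNAi against WT was -0.0045 with medians. Over pairs scored in all 9 libraries HP1a RNAi was -0.035, Su(var)3-9 RNAi -0.011 and both depletions -0.023 from the controls, HP1a RNAi was -0.019 with zeros kept, and Su(var)3-9 RNAi -0.022 with arms weighted by crossing pairs. Both depletions differed by 0.050 (exact permutation p = 0.0317) without chr3L of Su(var)3-9 RNAi replicate 2, chosen after seeing the data, and by 0.03 to 0.05 with a library left out. Centring each arm turned the difference in mean crossing score to 0.075 (exact permutation p = 0.0159) and that in positive share to -5.26 percentage points. For chr3L of Su(var)3-9 RNAi replicate 2 the centring median came mostly from crossing pairs. Leaving out a library gave scores from -0.32 to 0.012, the latter without Su(var)3-9 RNAi replicate 2. The cause of these turns was not tested.

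Counts of called crossing pairs depended most on the setting. For HP1a RNAi they were 29, 2 with zeros kept and 0 to 113 with a library left out. For Su(var)3-9 RNAi they were 0, 198 after centring, 5 with zeros kept and 0 to 554 with a library left out, namely 554 without Su(var)3-9 RNAi replicate 1 and 229 without replicate 2. For both depletions they were 1, 200 after centring, 5 with zeros kept, 0 with 2 groups in the fit and 0 to 489 with a library left out, namely 489 without Su(var)3-9 RNAi replicate 1, 120 without replicate 2 and 0 otherwise. With the statistic as an absolute difference, chosen after seeing the data, 2 of 12 distance classes passed an adjusted p of 0.05, against 0 before.

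The labels do not say that replicate numbers mark a shared batch. Deviations of same-numbered libraries correlated at 0.04 for mock and HP1a RNAi and -0.47 for mock and Su(var)3-9 RNAi. With the replicate block 117 of 1430 crossing pairs were called for HP1a RNAi, against 3850 of all 35835 pairs. It called 0 of 1475 for Su(var)3-9 RNAi, against 47 of 24029, and 0 of 1412 for both depletions, against 0 of 23869. The crossed pairing, chosen after seeing the data, called 23 of 1475 for Su(var)3-9 RNAi, against 519 of 24029. The contrast of both depletions differed by 0.03 in the replicate block. The scores hold no depth, so what depth limits could not be computed.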
